A study of Mus musculus with 3 samples.

Results

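Neural and neural crest markers are described here across 3 direct comparisons of 13.5 dpc (days post coitum) kidney with 10.5 dpc metanephric mesenchyme. The group holds 8 mouse genes, Sox2, Isl1, Sox10, Gap43, Tubb3, Stmn2, Elavl3 and Elavl4, chosen by symbol. Each was found through the oligos that carry exactly 1 gene symbol in the platform annotation. All 8 were measured, each by 1 oligo, out of 20061 genes tested. Sox2 had a value on arrays 2 and 3 only, and the other 7 had one on all 3 arrays.

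Each of the 3 arrays was a 2-colour oligonucleotide array that held kidney RNA in one channel and mesenchyme RNA in the other, so the arrays form 1 group and each gives 1 log2 ratio per oligo. Per the labels, the tissue was microdissected from normal CD1 embryos, the material was a pool of both sexes, and the RNA was amplified before labelling. The labels do not say which RNA is the numerator of the deposited ratio or which dye each RNA carried. A dye swap is recorded, but neither the array it applied to nor whether that array's ratio was turned is given in the sources used here. No sign was turned here, and the part of a swap in genes with opposite signs on different arrays, such as Elavl3, Tfap2a and Sox10, was not tested. Genes are therefore placed on the negative or the positive side of the ratio, and neither side is read as higher in kidney. The labels used here do not say whether each array had a tissue pool of its own, so the p-values cover the spread among 3 hybridisations, and this may be technical.

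The trunk of a midgestation mouse embryo holds the neural tube, the sensory ganglia and the neural crest, a migratory population that leaves the dorsal neural tube and forms peripheral neurons, glia and pigment cells. The markers follow this lineage in steps. Sox2 keeps neural progenitors undifferentiated, Sox10 marks migrating crest and its glia, Isl1 marks newly formed motor and sensory neurons, and the remaining genes encode the cytoskeletal, growth-cone and RNA-binding proteins that neurons switch on as they leave the cell cycle and extend axons. In tissue of mixed cells, a smaller share of neural cells and less of the RNA in each cannot be told apart.

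The arrays were not equally alike. Across genes the log2 ratios of arrays 1 and 2 correlated at r = 0.462, those of arrays 1 and 3 at r = 0.164 and those of arrays 2 and 3 at r = 0.157 (Pearson, as a description, over 19765 to 19790 genes measured on the pair). Array 3 had the lowest limma array weight, 0.548, against 1.14 for array 1 and 1.60 for array 2. The median log2 ratio over library oligos lay between 0.0014 and 0.030. The number of arrays limits the precision, and intensities were not used here, so dim spots could not be told from bright ones.

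Among the transcription factors, Sox2 and Isl1 lay far on the negative side and Sox10 had no shared sign. Sox2, the SOXB1 factor of neural stem and progenitor cells, which is also expressed in foregut endoderm, had log2 ratios of -3.13 on array 2 and -3.79 on array 3. Both were among the most extreme values of their arrays, with 0.422% of genes lower on array 2 and 0.131% lower on array 3. The mean was -3.46 ± 0.46 (log2, SD, n = 2 arrays), an 11.0-fold difference, and 4 of the 20061 genes had a lower mean. The test was limma's moderated test of the mean against 0 over all genes, two-sided. Sox2 had an unadjusted p of 0.000556 and did not pass after Benjamini-Hochberg adjustment over all genes (limma adjusted p = 0.114), and its value rests on the 2 arrays that measured it. Across genes these 2 arrays were the pair with the lowest correlation, at r = 0.157.

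Isl1, a LIM homeodomain factor needed for motor and sensory neurons, is also expressed in hindlimb and genital mesenchyme of the mouse embryo. Its log2 ratios were -1.66, -1.37 and -2.10 on arrays 1, 2 and 3. All 3 were low, with between 0.983% and 2.38% of genes lower on the array. The mean of -1.71 ± 0.37 (log2, SD, n = 3 arrays) is a 3.26-fold difference, with a 95% interval of -2.25 to -1.16 from the limma fit. The unadjusted p was 0.000739 and the limma adjusted p 0.114, so Isl1 did not pass over all genes either. With any 1 array left out its mean lay between -1.88 and -1.51.

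The promoters of these 2 genes are shown because they had the lowest means of the 8. Each window runs from 250 bases before to 50 bases after the RefSeq start (GRCm38.p6) and is written 5′ to 3′ on the gene's strand. Capitals mark matches to 3 motifs, which were searched on both strands. They were the CCAAT box, the E-box and the TATA box, spelled out with their matches after the sequences. The Isl1 window lies at chr13:116309639-116309938 on the minus strand and the Sox2 window at chr3:34649745-34650044 on the plus strand.
Isl1: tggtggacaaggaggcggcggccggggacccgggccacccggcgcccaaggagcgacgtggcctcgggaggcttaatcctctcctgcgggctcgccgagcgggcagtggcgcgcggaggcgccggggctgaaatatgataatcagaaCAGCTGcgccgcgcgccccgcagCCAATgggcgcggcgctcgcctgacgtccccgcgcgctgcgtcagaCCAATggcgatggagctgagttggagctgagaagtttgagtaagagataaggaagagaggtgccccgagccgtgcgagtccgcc
Sox2: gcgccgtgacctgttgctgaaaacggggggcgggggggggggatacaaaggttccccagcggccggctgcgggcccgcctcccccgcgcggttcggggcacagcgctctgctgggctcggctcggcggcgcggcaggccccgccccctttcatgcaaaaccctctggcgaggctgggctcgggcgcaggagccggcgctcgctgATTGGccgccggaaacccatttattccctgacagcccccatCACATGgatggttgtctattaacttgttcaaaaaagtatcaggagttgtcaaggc
CCAAT matched at 2 places for Isl1 and at 1 for Sox2, and 37.4% of all 32851 promoter windows of the table hold it. The E-box, CANNTG, matched at 1 place in each, and 72.3% of all windows hold it. No match overlapped another. The TATA box was searched as TATAAA. This motif, found in 13.6% of all windows, matched in neither. Both windows were rich in G and C, at 69% for Isl1 and 66.3% for Sox2, against a median of 52.7% over all windows. Of the 8 genes, 5 had a promoter window in the table, and these matches say nothing on whether a factor binds there.

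Sox10, the SOXE factor of migrating crest, Schwann cells and enteric progenitors, had log2 ratios of 0.83, 0.24 and -0.79 on arrays 1, 2 and 3. Array 1 placed it near the top of its genes, with 90.8% of genes lower, and array 3 near the bottom, with 9.90% lower. Its mean was 0.094 ± 0.820 (log2, SD, n = 3 arrays), with a limma 95% interval of -0.85 to 1.04 (adjusted p = 0.917). Without replicate 3 the mean was 0.54, and without replicate 1 it was -0.27, so the sign was set by which arrays were used.

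The growth-cone and cytoskeletal genes had negative means, of which Gap43 was the most even across arrays. Gap43 encodes the membrane phosphoprotein of growing axon tips. Its log2 ratios were -0.84, -0.84 and -0.91 on arrays 1, 2 and 3, with between 6.16% and 9.49% of genes lower on the array. The mean was -0.86 ± 0.042 (log2, SD, n = 3 arrays), a 1.82-fold difference, and only 1.60% of genes on 3 arrays had a smaller SD. The unadjusted p was 0.00290, and the limma adjusted p of 0.128 missed the threshold of 0.05.

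Tubb3, the beta tubulin used as the standard marker of young neurons, had log2 ratios of -0.43, -0.46 and -0.21. All 3 arrays were on the negative side, and the mean was -0.36 ± 0.14 (SD, n = 3), a 1.29-fold difference with a limma adjusted p of 0.344. Its unadjusted p of 0.0704 became 0.0385 with array weights. Stmn2, the neuron-specific stathmin that destabilises microtubules in growing axons, had log2 ratios of -0.30, 0.029 and -0.61. Array 2 stood at about 0 and the other arrays below it. The mean of Stmn2 was -0.29 ± 0.32 (SD, n = 3; limma adjusted p = 0.503), and it was -0.14 without replicate 3 and -0.46 without replicate 2.

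The neuronal ELAV (Hu) proteins, which bind U-rich elements in neuronal mRNAs and stabilise them, did not share a side. Elavl3 had log2 ratios of -1.16, -2.02 and 0.75 on arrays 1, 2 and 3. It was low on arrays 1 and 2, where 5.10% and 1.04% of genes were lower, and high on array 3, where 88.7% were lower. Its mean was -0.81 ± 1.42 (log2, SD, n = 3 arrays), an SD larger than that of 96.7% of genes, with a limma adjusted p of 0.537. Without replicate 3 the mean of Elavl3 was -1.59 with an unadjusted p of 0.00832 (limma adjusted p = 0.203), and without replicate 2 it was -0.21. Elavl4 had log2 ratios of 0.15, 0.27 and 0.12, all on the positive side and close together. The mean of Elavl4 was 0.18 ± 0.078 (SD, n = 3), a 1.13-fold difference that limma did not separate from 0 (adjusted p = 0.597).

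**Figure D1:**
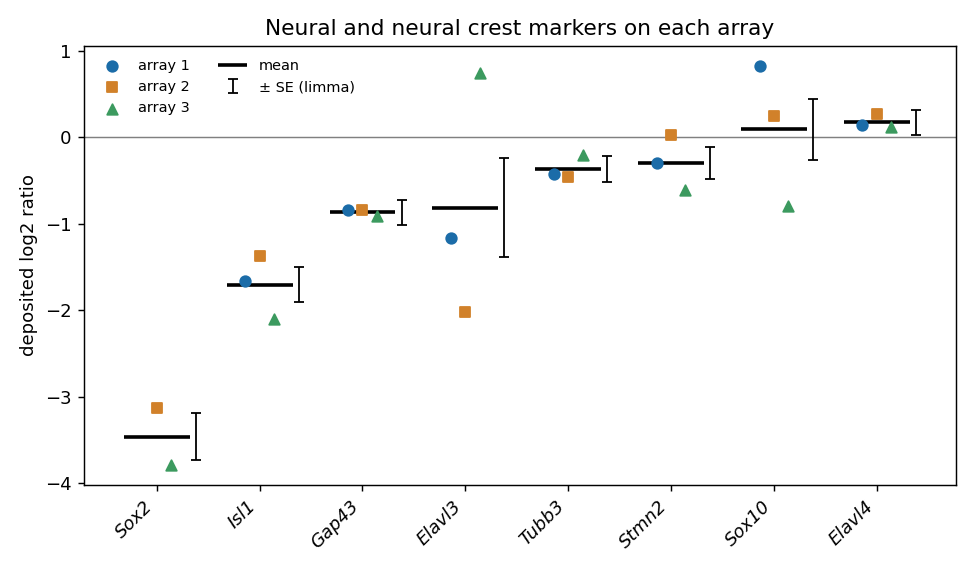
Deposited log2 ratio of each of the 8 markers (vertical axis) on arrays 1, 2 and 3 (circles, squares and triangles), with the mean over arrays as a bar and the limma standard error beside it. Genes run from the lowest mean, Sox2 at -3.46 with no value on array 1, to the highest, Elavl4 at 0.18. Elavl3, Sox10 and Stmn2 have arrays on both sides of 0, with Stmn2 at 0.029 on array 2.

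Set in order of their means, the markers ran Sox2, Isl1, Gap43, Elavl3, Tubb3, Stmn2, Sox10 and Elavl4. The array values of Sox2 and Isl1 did not overlap, nor did those of Isl1 and Gap43. Every later pair of neighbours overlapped, so the order within such a pair is not set beyond the spread between arrays. Markers further apart could still be separate. All values of Gap43 lay below those of Tubb3, Stmn2, Sox10 and Elavl4, and those of Tubb3 and Stmn2 lay below those of Elavl4. How often genes taken from all those tested fail to overlap was not computed. The median of the 8 means was -0.59, against 0.0017 over all genes tested, and 6 of the 8 were below 0, against 49.8% of all genes. The median was -0.36 with complete oligos, where Sox2 drops out, and lay between -0.49 and -0.32 with 1 array left out.

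With the threshold at an unadjusted p of 0.05, limma called 3 of the 8 on the negative side, namely Sox2, Isl1 and Gap43, where the share over all genes was 7.73%. On the positive side it gave 0 of the 8, where the share over all genes was 8.82%. After adjustment over all genes 0 of the 8 passed, as did 0.00498% of the genes tested, which is 1 gene. Of the 7 markers on 3 arrays, Isl1, Gap43 and Tubb3 were negative on all 3, against 19.9% of genes, and Elavl4 was positive on all 3, against 21.4%. A mean of -1 or lower was seen for Sox2 and Isl1, against 3.17% of genes, and a mean of 1 or higher for 0 of the 8, against 2.39%. These shares describe markers chosen with earlier results of these arrays known.

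Without replicate 3, Isl1, Gap43 and Elavl3 had an unadjusted p under 0.05, all negative, and Sox2 could not be tested because 1 value was left. Without replicate 2 the count was 2, Isl1 and Gap43, and without replicate 1 it was 3, again Sox2, Isl1 and Gap43. Isl1 and Gap43 kept an unadjusted p under 0.05 in each of the 9 alternative settings, with p from 0.000396 to 0.00403 for Isl1 and from 0.00214 to 0.0235 for Gap43.

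**Figure D2:**
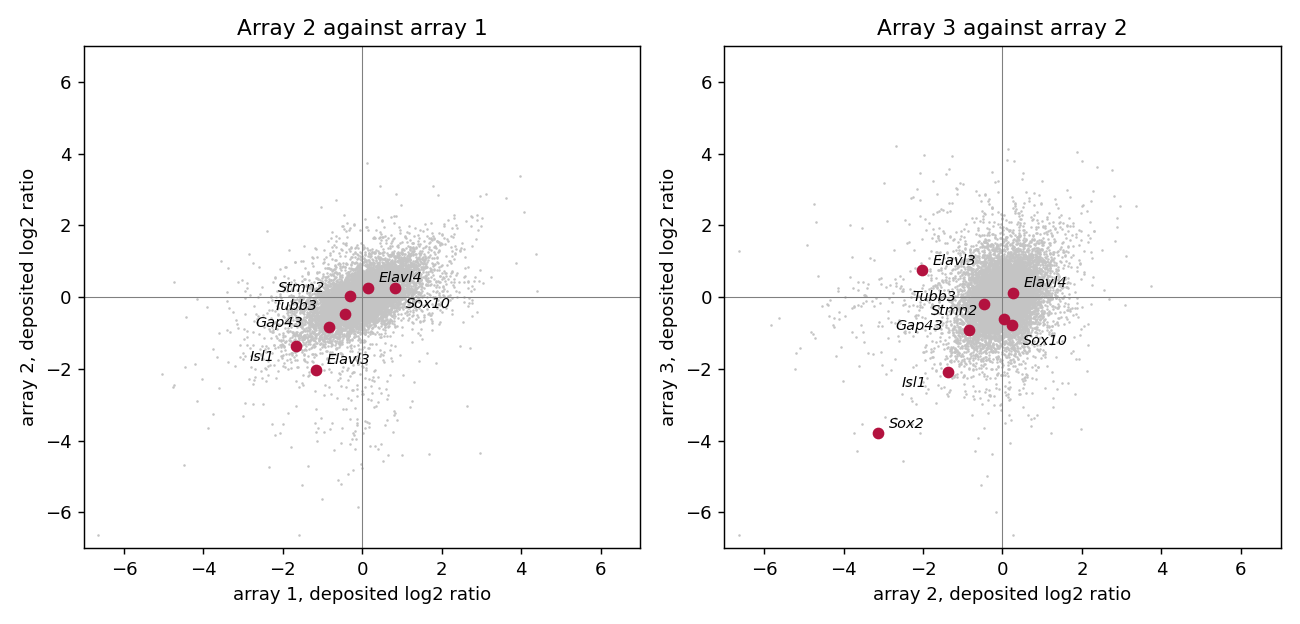
Log2 ratios of named genes on pairs of arrays (grey points; left, array 2 against array 1; right, array 3 against array 2), with the 8 markers in red. Isl1 and Gap43 lie in the lower left of both panels, Sox2 is drawn only on the right, and Elavl3 lies low on arrays 1 and 2 but at 0.75 on array 3.

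The relatives of the markers were examined next, from a list of 29 genes of which 27 were measured. Most share a gene family with a marker. Basp1, Marcks and Marcksl1 are listed for their likeness to Gap43 in use and are not called its paralogues here. Of the 27, limma gave 4 on the negative and 2 on the positive side at an unadjusted p under 0.05, and 0 passed over all genes. These counts were 14.8% and 7.41% of the 27, against 7.73% and 8.82% of all genes. The median of the 27 means was -0.11. Sox1, the SOXB1 factor closest in use to Sox2 in the neural plate, stood at -0.75, -0.45 and -1.02 on arrays 1, 2 and 3. All 3 arrays were negative, with a mean of -0.74 ± 0.29 (SD, n = 3; limma adjusted p = 0.193). Sox3, the third factor of that subgroup, had -3.43 on array 2 but 0.87 and 0.040 on arrays 1 and 3, so its mean of -0.84 ± 2.28 rested on array 2 and was 0.46 without replicate 2.

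The SOXE relatives of Sox10 stood near 0, with Sox8 at 0.022 ± 0.359 and Sox9, which also acts in cartilage and in the ureteric bud, at -0.16 ± 0.58 (mean log2 ratio, SD, n = 3). Isl2, which acts beside Isl1 in motor neurons, had -0.19, 0.45 and -0.88 on arrays 1, 2 and 3 and a mean of -0.21 ± 0.67. None of the 8 measured Lhx genes had an unadjusted p under 0.05, and their means ran from -0.30 for Lhx3 to 0.36 for Lhx4. The array values of Isl1 did not overlap those of Isl2 or of any measured Lhx gene. Between 0.983% and 2.38% of all genes were lower than Isl1 on an array, so this lack of overlap is not particular to the family. The share of all genes that do not overlap Isl1 was not computed.

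Elavl2, the remaining neuronal ELAV gene, which is also expressed in germ cells, lay on the other side from Elavl3. It had log2 ratios of 0.89, 0.53 and 0.97 on arrays 1, 2 and 3, a mean of 0.79 ± 0.24 (SD, n = 3) and an unadjusted p of 0.00773 (limma adjusted p = 0.164). Elavl1, the family member made in most cells, stood at -0.24 ± 0.15. The family thus covered both sides of the ratio. Related oligos can share target sequence, and how far these were specific was not tested.

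Among the beta tubulins, Tubb5, the isotype most widespread in dividing embryonic cells, stood at -1.07 ± 0.16 and Tubb1, the isotype of platelets and megakaryocytes, at -1.28 ± 0.63, while Tubb6 stood at 0.61 ± 0.11 (mean log2 ratio, SD, n = 3). These 3 had an unadjusted p under 0.05, and each lay further from 0 than Tubb3. Tubb2b, another tubulin of developing neurons, stood at -0.20 ± 0.29 and Tubb4a at -0.056 ± 0.086. Of the stathmins, the widespread Stmn1 stood at 0.035 ± 0.172 and Stmn4 at -0.11 ± 0.17. Stmn3 had -0.79, -1.35 and 0.11 on arrays 1, 2 and 3, and, like Elavl3, it was negative on arrays 1 and 2 and not on array 3. Of the membrane-bound substrates of protein kinase C that resemble Gap43 in use, Marcksl1 stood at -1.04 ± 0.16, with all 3 arrays at -0.87 or lower, while Marcks and Basp1 stood at 0.20 ± 0.056 and 0.030 ± 0.130.

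**Figure D3:**
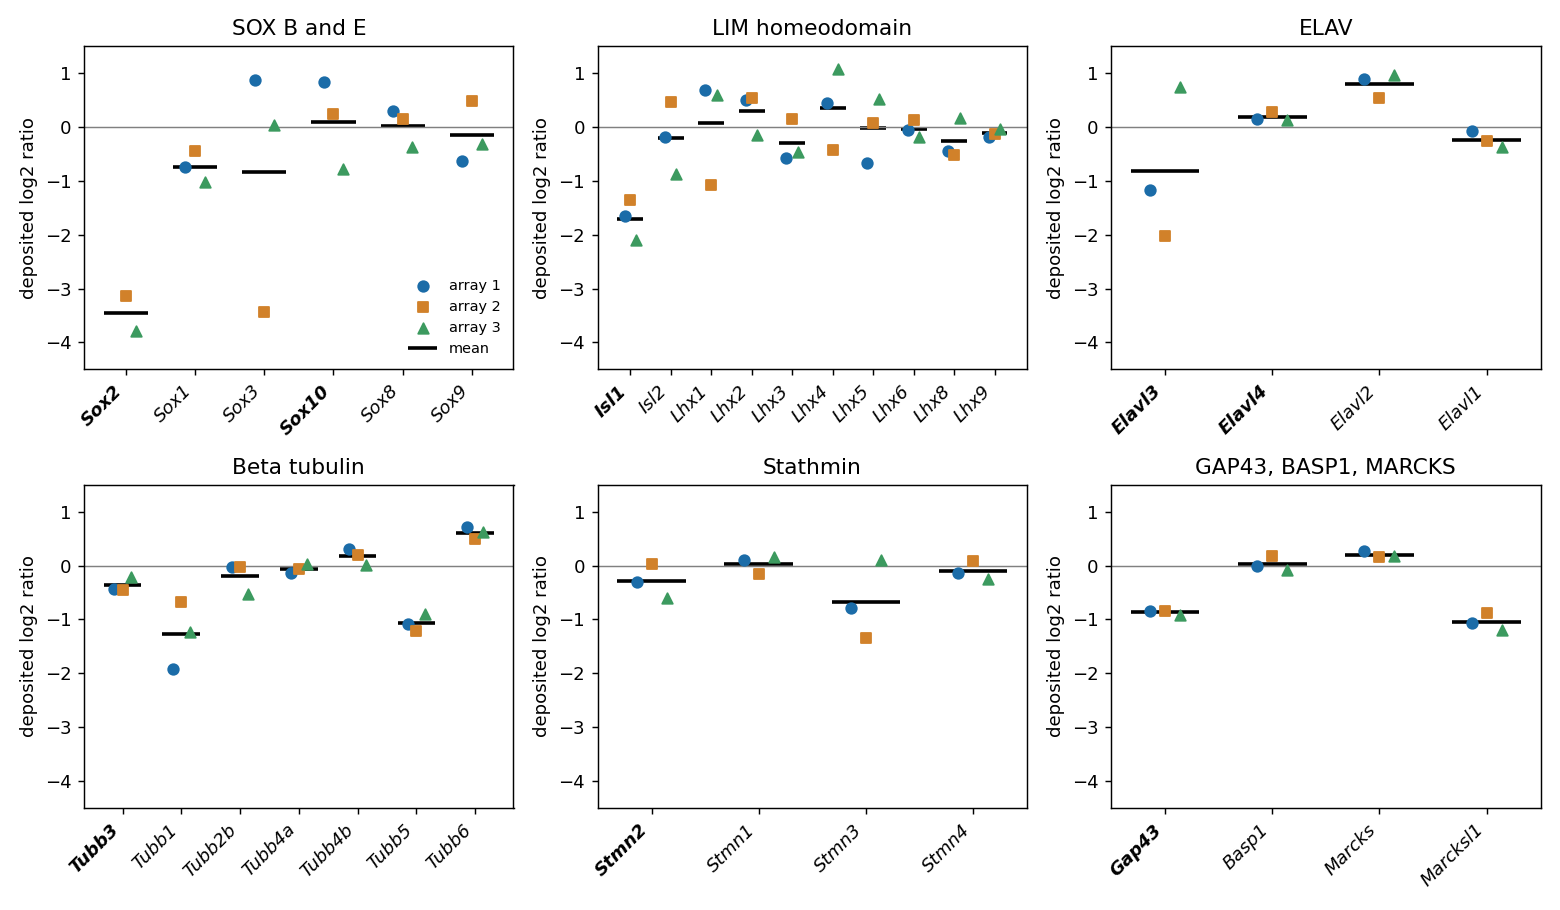
Log2 ratios of the 8 markers (bold) and their measured relatives on arrays 1, 2 and 3, in 6 panels, with means as bars. Panels are by gene family, except that the genes beside Gap43 resemble it in use. Sox2 and Isl1 lie below each of their plotted relatives by mean, Elavl2 and Elavl3 lie on opposite sides of 0, and Marcksl1 lies beside Gap43.

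The wider lists of neural genes held genes past the unadjusted threshold on both sides. In 5 lists that together name 131 genes, 114 were measured, of which limma gave 10 on the negative side (8.77%) and 9 on the positive side (7.89%) at an unadjusted p under 0.05, close to the shares over all genes. None of the 114 passed over all genes. The median over the 114 was -0.11, with 73 means negative and 41 positive, where 49.8% of all genes had a negative mean. Of the 113 measured on 3 arrays, 25 were negative on every array and 17 positive on every array. Over all genes on 3 arrays these shares were 19.9% and 21.4%.

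Of 31 measured genes of neural progenitors and neurogenesis, 22 had a negative mean, and the median was -0.28. At a limma unadjusted p under 0.05, 12.9% were negative and 6.45% positive, against 7.73% and 8.82% of all genes. Zic1, a factor of the dorsal neural tube that is also expressed in somites, was the lowest, with -3.66, -1.68 and -2.94 on arrays 1, 2 and 3. Its mean of -2.76 ± 1.00 is a 6.77-fold difference (SD, n = 3; unadjusted p = 0.00197, limma adjusted p = 0.118). Olig2, the factor of motor neuron progenitors, stood at -0.85 ± 0.32 and Insm1, a zinc finger factor of newly formed neurons and endocrine cells, at -0.70 ± 0.017; with Sox1 and Zic1 these were the 4 on the negative side. Dbx1, a factor of interneuron progenitors, had the next lowest mean, -1.72 ± 1.81, with -3.75 on array 2; it missed the threshold, and its mean was -0.71 without replicate 2.

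On the positive side of this list were Nes, the intermediate filament nestin of progenitors, which is also made in developing vessels and muscle, and Id4, an inhibitor of bHLH factors. Nes had log2 ratios of 0.83, 0.69 and 0.61 and a mean of 0.71 ± 0.11, and Id4 had 1.35, 0.83 and 0.62 and a mean of 0.93 ± 0.38 (SD, n = 3 each). Both were positive on every array and had limma adjusted p-values of 0.159 and 0.171. The highest mean of the list, 1.03 for the Notch ligand Dll1, came from arrays at 0.83, -0.26 and 2.52 and missed the threshold, and its mean was 0.28 without replicate 3.

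Of 26 measured genes of neural crest, Schwann cells and autonomic neurons, 16 had a negative mean and the median was -0.13. The shares at a limma unadjusted p under 0.05 were 11.5% negative and 3.85% positive, against 7.73% and 8.82% of all genes. Gfra3, the artemin co-receptor of sensory and sympathetic neurons, stood at -2.27 ± 0.24 (SD, n = 3), a 4.82-fold difference with an unadjusted p of 0.000111 (limma adjusted p = 0.114). Twist1, a factor of cranial crest and of limb and body wall mesenchyme, stood at -1.57 ± 0.13, and Hand2, a factor of sympathetic neurons that is also made in limb mesenchyme, at -0.64 ± 0.43, or -0.41 without replicate 3. Snai2, a factor of crest delamination that is also made in mesenchyme, was the 1 gene on the positive side, at 0.76 ± 0.24, and the highest means after it were 0.38 for Kit and 0.37 for Mitf. Tfap2a had -2.05, -1.40 and 2.37 on arrays 1, 2 and 3, and so, like Elavl3, was low on arrays 1 and 2 and high on array 3. Its mean was -0.36, and -1.72 without replicate 3.

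The neuronal cytoskeleton, axon and RNA-binding list had genes on both sides, with 3 negative and 4 positive among 30 measured. These were 10% and 13.3% of the list, against 7.73% and 8.82% of all genes. On the negative side were Marcksl1, Dpysl3, a collapsin response mediator of growing axons, at -0.84 ± 0.33, and Nefl, the light neurofilament chain, at -0.80 ± 0.55. On the positive side were Kif5a, a kinesin heavy chain of neurons, at 1.26 ± 1.14 (0.71 without replicate 1), Dcx, the microtubule protein doublecortin of migrating neurons, at 1.01 ± 0.61, Uchl1, an abundant neuronal deubiquitinase, at 0.998 ± 0.184, and Elavl2. Uchl1 had 1.21, 0.87 and 0.91 on arrays 1, 2 and 3 and Dcx had 1.01, 0.40 and 1.63. All 6 values were positive, on the side away from Gap43 and Tubb3.

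Of 22 genes of synapses and secretory granules, 0 were negative and 2 positive at an unadjusted p under 0.05, Rab3a, a vesicle GTPase, at 0.58 ± 0.040 and Chga, the granule protein chromogranin A, at 0.44 ± 0.12. The positive share was 9.09%, against 8.82% of all genes, and the negative share 0%, against 7.73%. Without replicate 3 the negative count was 3. The lowest means were -0.70 for Scg3 and -0.43 for Vamp2, and neither passed. The 6 measured neurotrophins and receptors lay between -0.45 for Bdnf and 0.18 for Sort1, with 0 at an unadjusted p under 0.05. Ntf5 stood at -0.23 and Ngfr, the low-affinity neurotrophin receptor of crest and Schwann cells, at 0.081.

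Markers of other tissues that a dissection of this region could hold lay on the same side as Sox2 and Isl1 in larger shares. At an unadjusted p under 0.05, limma called 42.9% to 57.1% of each list negative and 0% to 7.14% positive. The negative share was 8.77% over the neural lists together and 7.73% over all genes. The lists share genes, such as Twist1 and Hand2, and were written with earlier results of these data known. Of 14 measured genes of hindlimb, genital and body wall mesenchyme, 7 were negative and 0 positive at an unadjusted p under 0.05, with a median of -0.66. Pitx1, the hindlimb factor, stood at -2.51 ± 0.42 and Hoxd13, of the distal limb and genital tubercle, at -2.13 ± 0.52, while Tbx4, another hindlimb factor, stood at 0.066 ± 0.151 (SD, n = 3 each). The others of the 7 were Twist1, Msx1, Prrx1, Twist2 and Hand2, and the highest means of the list were 0.29 for Tbx2 and 0.12 for Alx4. Of 14 somite and skeletal muscle genes 8 were negative and 1 positive, with a median of -0.63. The 8 were Acta1, Tcf15, Myl1, Myf6, Myf5, Tnnc1, Des and Myod1. Over the whole list of 14, the lowest means were -1.98 for Acta1 and -1.77 for Pax1, and the highest were 1.11 for Uncx and -0.025 for Pax3. Pax1 missed the threshold, with -2.94, 0.17 and -2.55 on arrays 1, 2 and 3.

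Of 14 genes of gut endoderm, liver and yolk sac, 6 were negative and 1 positive, with a median of -0.33. The lowest was Nkx2-3, of visceral mesoderm, at -2.39 ± 0.043, and Ttr, Afp, Apoa1, Cdx2 and Trf were the others of the 6. The highest means were 0.87 for Alb and 0.15 for Shh. The foregut factors Foxa2 and Nkx2-1 had means of -0.067 and 0.012, with arrays on both sides of 0. Foxa2 had 1.05, -0.17 and -1.08 on arrays 1, 2 and 3. Sox17 of the same list had a mean of -0.42 and was negative on every array. Of 11 red-cell genes 5 were negative and 0 positive, with a median of -0.91 and the lowest mean at -3.95 for the embryonic globin Hbb-bh1. The others of the 5 were Klf1, Ermap, Car2 and Alas2, and the highest mean was 0.42 for Slc4a1, followed by -0.062 for Hbb-y. Hbb-y is also an embryonic globin, as is Hba-x, at -0.21, so the embryonic globins did not share a low mean. The metanephric mesenchyme and kidney list lay the other way, with 10 of 16 positive and 1 negative, and a median of 0.75. Its highest means were 3.31 for Cdh16 and 1.84 for Wnt4, and its lowest were -0.57 for Osr1 and -0.012 for Sall1. Over all genes 0 members of these lists passed limma. The part of these tissues in the values of the neural markers was not tested, and ratios give no level, so whether a marker was present at all cannot be read.

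**Figure D4:**
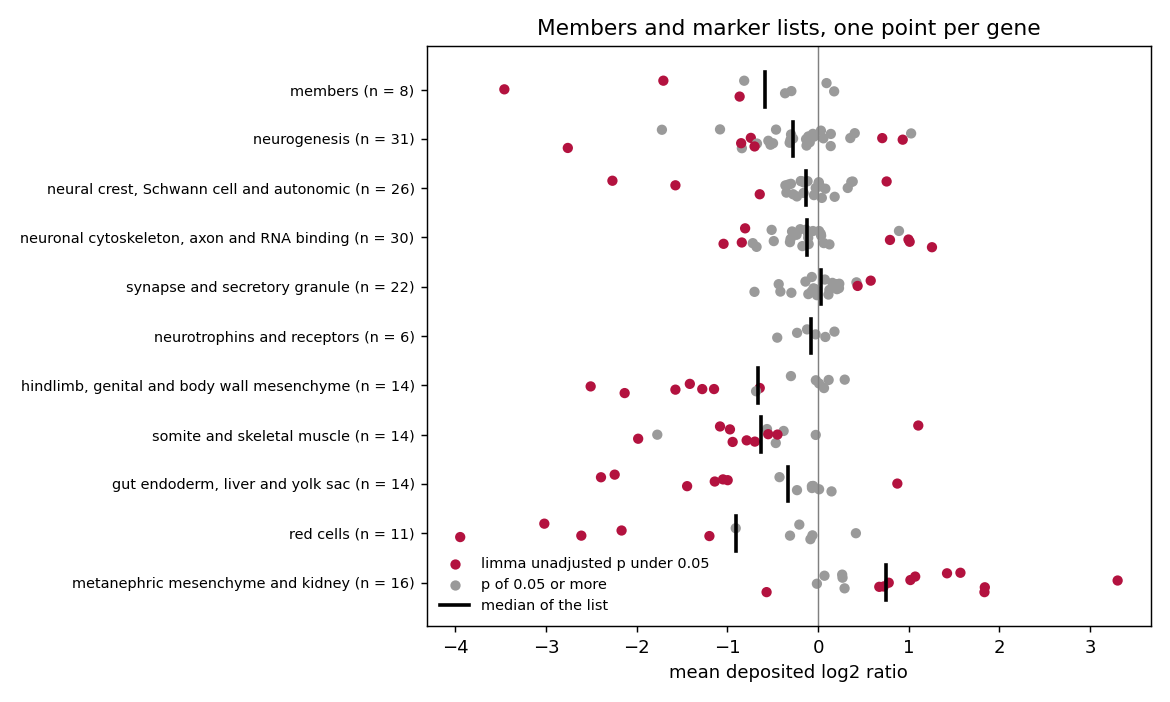
Mean log2 ratio over arrays (horizontal axis) of each measured gene in the marker group and in 10 marker lists, 1 point per gene, red where the limma unadjusted p was under 0.05, with the list median as a black bar. Medians of the 5 neural lists lie between -0.28 and 0.032, those of the 4 lists of other embryonic tissues between -0.91 and -0.33, and that of the kidney list at 0.75.

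The genes whose values were most like those of Isl1, Gap43 and Elavl3 were found by Euclidean distance over the 3 log2 ratios, among named genes on 3 arrays. For Isl1 they were Atp6v1b2 at a distance of 0.18, Prpf19 at 0.30 and Gpat4 at 0.31. For Gap43 they were Myl2 at 0.061, Zscan21 at 0.097 and Pias4 at 0.099. For Elavl3 they were Cylc2 at 0.28, Hyal5 at 0.37 and Scp2-ps1 at 0.39. None of these 9 genes is in the neural lists, and 3 arrays give too few points to read a shared pattern from them.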

How the data were processed

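The authors' deposited values are log2 ratios between the channels of an array. Per the labels, images were read with ImaGene, followed by print-tip loess, normalization between arrays in R and a lowess curve over log intensity (20% of the data at each point, control values under 10 set to 10). The step order, the numerator, the dye-swapped array and a genome build are not stated in these sources. The log base follows from the numbers, since at least 99.7% on each array, as powers of 2, come within 0.01 of a last-place unit of a 3-decimal ratio.

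Of 22702 spots, 881 controls were left out. Of 21821 library oligos, 16658 had 1 gene symbol, and the other 5163 kept their own identifiers. Oligos with a value on at least 2 arrays (21581) were averaged by symbol into 20061 genes, 426 of them on 2 arrays. Each mean was set against 0 by limma 3.58.1 (R 4.3.3; intercept only, eBayes, two-sided, Benjamini-Hochberg over all genes, threshold 0.05), after the fit was tested on simulated data. An exact sign-flip test on 3 arrays cannot reach below p = 0.25. Array pairs held 13 to 26 equal values each, so no array copied another. Errors are SDs over arrays. Alternatives were complete oligos, single oligos, each array left out, array weights, median centring, scaling between arrays and robust moderation.

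The markers, 11 gene lists and tests were chosen with earlier results of these data known. Genes were named by rule. Named were the 8 markers, their listed relatives, and the 2 lowest and 2 highest means of each list. So were list genes at a limma unadjusted p under 0.05 (up to 8). The 3 nearest genes were also named for each marker on 3 arrays with a mean of at least 0.5 in size. A few further list genes were named for their known use after their values were seen. Promoter sequences are from RefSeq.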

Additional observations from a re-analysis of the deposited data

How the results depend on the processing

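Single markers were compared by sign and call, counts by a margin of 1.5 times, and medians by 1 SD of the 3 array medians. Of 258 alternative values, 229 stayed within these, 28 counts or medians moved beyond them, and the mean of 1 marker, Sox10, changed sign. No marker passed limma's adjusted threshold in any setting, so for single markers only a change of sign could register. Elavl3, at -1.59 without replicate 3 and -0.21 without replicate 2, was thus counted as unchanged. Robust moderation leaves every mean and median as it is. The 229 is therefore not a measure of stability. No paired analysis was possible because the arrays form 1 group. Sox2 has no value with complete oligos, without replicate 2 or without replicate 3. Sox10 changed sign, at -0.27 without replicate 1 and up to 0.54 without replicate 3. With 1 array left out, the genes past the adjusted threshold were 0 (0 to 0; also 0 after scaling between arrays), those negative at an unadjusted p under 0.05 ran from 825 to 1823 and those positive from 859 to 2099. The median of the markers' means ran from -0.49 to -0.32 with 1 array left out and was -0.36 with complete oligos, where Sox2 drops out. For neurogenesis the median ran from -0.28 to -0.096, the negative count from 3 to 7 and the positive count from 1 to 3. For neural crest, the negative count ran from 2 to 5 and the positive count from 0 to 1, and was 2 with single oligos. For the cytoskeletal list the median ran from -0.13 to -0.076, the negative count from 1 to 5 (5 with array weights) and the positive count from 2 to 4. For synapse genes the negative and positive counts each ran from 0 to 3, with 1 negative under array weights. For neurotrophins the median, -0.074 with all arrays, ran from -0.19 to 0.071, so it changed sign without replicate 3, as it did with array weights (0.024), and 1 gene was negative after median centring. The cause of these changes was not tested, beyond the loss of Sox2 and of an array. Over the markers' alternatives the lowest limma adjusted p was 0.0836, for Sox2. Without intensities, what signal over background limits could not be examined.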
